A study of Homo sapiens with 3 samples.

Results

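F2RL2, OXTR and ADGRG6 are 3 genes for G protein-coupled receptors whose levels were lower after knockdown of TAZ and after knockdown of YAP in A549 cells. They are the 3 members of a set that was chosen by its measured log2 differences from the control array, out of 14884 genes with a named probe set (a probe set is a group of array probes that report 1 transcript). Each of the 3 genes had 1 named probe set, and all 3 passed a filter on dim genes that 10768 genes passed. Because these differences chose the genes, the levels below describe 3 arrays and carry no test.

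The data were Affymetrix whole-transcript microarrays of A549, a widely used epithelial line grown from a human lung tumour. The cells received control siRNA (siNC), siRNA against TAZ (siTAZ) or siRNA against YAP (siYAP) with a lipid transfection reagent, and total RNA was taken 48 h later. There was 1 array per group, 3 in all, so no value has an error and the spread between cultures is unknown. The labels do not give the siRNA sequences or how many siRNAs were used per target.

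G protein-coupled receptors cross the cell membrane and pass an outside signal to G proteins inside the cell. Receptors that act through the Gq and G12 families of G proteins lower the activity of the Hippo pathway kinases LATS1 and LATS2 and so activate YAP and TAZ, whereas receptors that raise cyclic AMP through Gs restrain them. YAP and TAZ (genes YAP1 and WWTR1) have no DNA-binding domain and reach their target genes mainly through TEAD transcription factors, often beside AP-1. F2RL2 encodes PAR3, a protease-activated receptor that thrombin cleaves and that in mouse platelets serves as a cofactor for another receptor of its family. OXTR encodes the oxytocin receptor, which acts mainly through Gq and is known for contraction of the uterus and milk ejection. ADGRG6 (GPR126) is an adhesion receptor with a long extracellular part, known for its role in myelination by Schwann cells and for raising cyclic AMP.

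The promoters of the 3 genes are shown because the genes had lower levels together, beside that of CCN2, a YAP/TAZ target gene with TEAD-binding sites in its promoter. Each run is the 250 bases before the annotated start of the gene, read 5′ to 3′ on the gene's own strand, from RefSeq on assembly GRCh38.p14. Capitals mark matches on either strand to GGAATG (the core of the TEAD motif), TGANTCA (AP-1) or TGACGTCA (the cyclic AMP response element).
F2RL2, chr5:76623404-76623653, minus strand: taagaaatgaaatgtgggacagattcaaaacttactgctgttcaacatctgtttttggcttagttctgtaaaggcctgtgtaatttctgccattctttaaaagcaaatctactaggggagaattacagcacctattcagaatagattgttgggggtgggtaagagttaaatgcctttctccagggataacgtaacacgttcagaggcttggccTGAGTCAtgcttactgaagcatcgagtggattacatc
OXTR, chr3:8769614-8769863, minus strand, the outermost of 3 annotated starts: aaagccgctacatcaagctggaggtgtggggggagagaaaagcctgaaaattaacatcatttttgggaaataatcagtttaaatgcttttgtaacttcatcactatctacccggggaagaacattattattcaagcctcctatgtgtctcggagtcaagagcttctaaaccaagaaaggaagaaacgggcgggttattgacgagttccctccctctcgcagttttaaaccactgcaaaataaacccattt
ADGRG6, chr6:142301757-142302006, plus strand: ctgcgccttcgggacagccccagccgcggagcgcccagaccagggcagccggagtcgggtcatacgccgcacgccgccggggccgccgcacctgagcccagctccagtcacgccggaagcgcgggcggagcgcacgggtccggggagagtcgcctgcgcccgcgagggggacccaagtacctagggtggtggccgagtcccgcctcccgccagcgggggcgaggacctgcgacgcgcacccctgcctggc
CCN2, chr6:131951373-131951622, minus strand: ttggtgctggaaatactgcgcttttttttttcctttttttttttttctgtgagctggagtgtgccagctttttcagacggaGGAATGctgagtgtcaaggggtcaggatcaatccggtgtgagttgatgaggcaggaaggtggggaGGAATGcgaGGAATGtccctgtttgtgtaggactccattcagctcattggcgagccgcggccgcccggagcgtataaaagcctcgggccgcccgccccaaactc

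The F2RL2 window held 1 AP-1 match, TGAGTCA, whose first base lay 37 bases before the start, and no TEAD match. The windows of OXTR (all 3 starts) and ADGRG6 held no match to any of the 3 motifs. The CCN2 window held 3 TEAD matches, starting 169, 104 and 95 bases before the start. Of 3 other YAP/TAZ target genes searched, ANKRD1 held 2 TEAD matches and 1 AP-1 match. AXL and AMOTL2 each held 1 TEAD match in 1 of their 2 windows and none in the other. Among all 35116 windows of this length in the table, 11.9% held a TEAD match, 6.57% an AP-1 match and 1.65% a cyclic AMP response element. The ADGRG6 window was 77.6% G and C, against 40.8% for F2RL2. The 3 OXTR windows were 42.0%, 68.0% and 57.6%, outermost first. A match describes letters only, and a window without one says nothing about sites elsewhere, such as distal enhancers.

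Both siRNA targets were lower on their own arrays. YAP1 was 8.45, 8.24 and 6.87 on the siNC, siTAZ and siYAP arrays, and WWTR1 was 6.50, 5.81 and 6.50, all RMA levels on the log2 scale. RMA is the array summary that the submitters' notes name. WWTR1 was 0.69 below control on its own array and YAP1 1.58 below. YAP1 has 2 named probe sets, of which the brighter is given, and WWTR1 has 1. With probe sets averaged, the median siYAP difference of the 2 genes went from -0.79 to -0.54, so the size for YAP1 depends on the probe set. The epithelial keratin gene KRT18 was high at 11.56, 11.38 and 11.56 on the brighter of its 2 named probe sets. The keratin genes KRT8 (6.50, 6.50 and 6.55) and KRT19 (6.44 on all 3 arrays) had lower values. Values of different probe sets do not rank the RNA amounts of different genes. The epithelial adhesion gene EPCAM was 8.23, 8.13 and 8.19. Among lung markers, NKX2-1 was dim at 4.61, 4.68 and 4.61, and SFTPB was 4.88 on all 3 arrays. Of 6 leukocyte, 5 endothelial and 7 fibroblast markers, 2, 3 and 3 had a named probe set. The summed linear levels on the siNC, siTAZ and siYAP arrays were 368, 535 and 541 for leukocyte, 48.4, 51.2 and 50.3 for endothelial, and 217, 320 and 314 for fibroblast markers. The leukocyte sum was carried mainly by CD68 (8.43, 9.00 and 9.02) and the fibroblast sum mainly by LUM (7.45, 8.14 and 8.10). The other fibroblast markers with a value did not go with LUM: THY1 was 5.22, 5.06 and 5.06, and DCN, under the filter, 2.38 on all 3 arrays. VWF, the 1 endothelial marker past the filter, was 4.42 on all 3. RMA gives no level of 0, and the defining markers PTPRC, CD3E, CDH5, COL1A1 and PDGFRB had no named probe set. Whether these shifts have a part in the receptor levels was not tested.

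**Figure D1:**
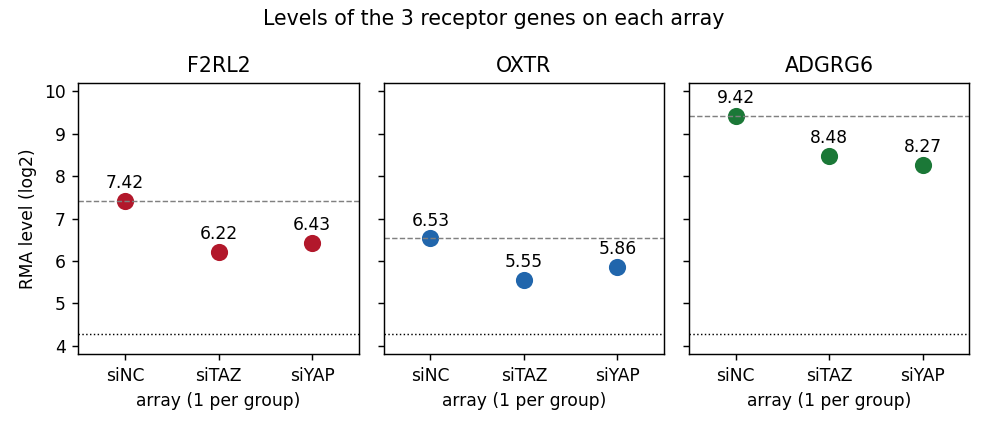
RMA levels (log2, vertical axis) of F2RL2, OXTR and ADGRG6 on the siNC, siTAZ and siYAP arrays, 1 point per array with its value. The dashed line marks the siNC level and the dotted line the filter at 4.27. Every knockdown point lies below its dashed line and above the dotted one.

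F2RL2, the thrombin-cleaved receptor PAR3, was 7.42 on the siNC array, 6.22 on the siTAZ array and 6.43 on the siYAP array. Both knockdown arrays lay below the control by more than they differed from each other. The difference from control was -1.20 on the log2 scale after TAZ knockdown, which is 2.30-fold lower and leaves 43.5% of the control level. After YAP knockdown it was -0.99, or 1.98-fold lower, leaving 50.4%. F2RL2 had the 11th lowest siTAZ difference and the 14th lowest siYAP difference among the 10768 kept genes. In RNA from whole cultures a lower level can come from fewer cells that express the gene or from less RNA per cell, which cannot be told apart.

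OXTR, the oxytocin receptor, was 6.53 on the siNC array, 5.55 on the siTAZ array and 5.86 on the siYAP array. The control was again highest and the siTAZ array lowest, and that lowest level lay 1.28 above the filter. The difference was -0.99 after TAZ knockdown, 1.98-fold lower with 50.5% of the control level left. It was -0.67 after YAP knockdown, 1.59-fold lower with 62.8% left. These were the 29th lowest siTAZ difference and the 28th lowest siYAP difference of the kept genes.

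ADGRG6, the adhesion receptor, was 9.42 on the siNC array, 8.48 on the siTAZ array and 8.27 on the siYAP array. It differs from the other two in that the siYAP array, not the siTAZ array, held the lowest value. The difference was -0.95 after TAZ knockdown (1.93-fold lower, 51.9% left) and -1.15 after YAP knockdown (2.22-fold lower, 45.0% left). It ranked 34th from the lowest in the siTAZ comparison and 5th in the siYAP comparison.

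At 1.5-fold or more, all 3 genes were lower on both knockdown arrays. Of all kept genes, 1.02% were at least 1.5-fold lower on the siTAZ array and 0.381% on the siYAP array. At 2-fold, F2RL2 passed in the siTAZ comparison, where 0.241% of kept genes did, and ADGRG6 in the siYAP comparison, where 0.121% did. The genes were chosen on these differences, so the counts are no evidence of their own. Both comparisons also subtract the same control array, so a high siNC value would lower both differences of a gene together. When the reference was instead the average of siNC and the remaining knockdown array, the siTAZ differences were -0.71 for F2RL2, -0.65 for OXTR and -0.37 for ADGRG6. The siYAP differences against such an average were -0.39, -0.18 and -0.68.

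The siYAP and siTAZ arrays can be set against each other without the control. On the siYAP array F2RL2 was 0.21 higher (1.16-fold), OXTR 0.31 higher (1.24-fold) and ADGRG6 0.21 lower (1.15-fold) than on the siTAZ array. None of the 3 reached 1.5-fold, which 0.566% of kept genes reached upward and 0.176% downward. These sizes were larger than those of 92.0%, 96.3% and 91.6% of the kept genes, most of which sat very near 0. Among kept genes with unequal values on the 2 arrays, the shares were 82.6%, 92.0% and 81.7%. The log2 difference after YAP knockdown was 82.2% of that after TAZ knockdown for F2RL2, 68.1% for OXTR and 122% for ADGRG6. The same quotient was 80.7% for AXL, 70.3% for CCN2, 63.1% for AMOTL2 and 25.6% for ANKRD1, which are widely used YAP/TAZ target genes, although the siTAZ level of ANKRD1 was dim (4.18). CCN2 has 2 named probe sets, of which the brighter was used. With probe sets averaged, the median difference of these 4 genes went from -1.51 to -1.13 (siTAZ) and from -0.83 to -0.56 (siYAP). The size of the CCN2 differences thus depends on the probe set. Without repeated arrays it is unknown whether the order of the 2 knockdown levels exceeds the spread between cultures for any of the 3 receptors.

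**Figure D2:**
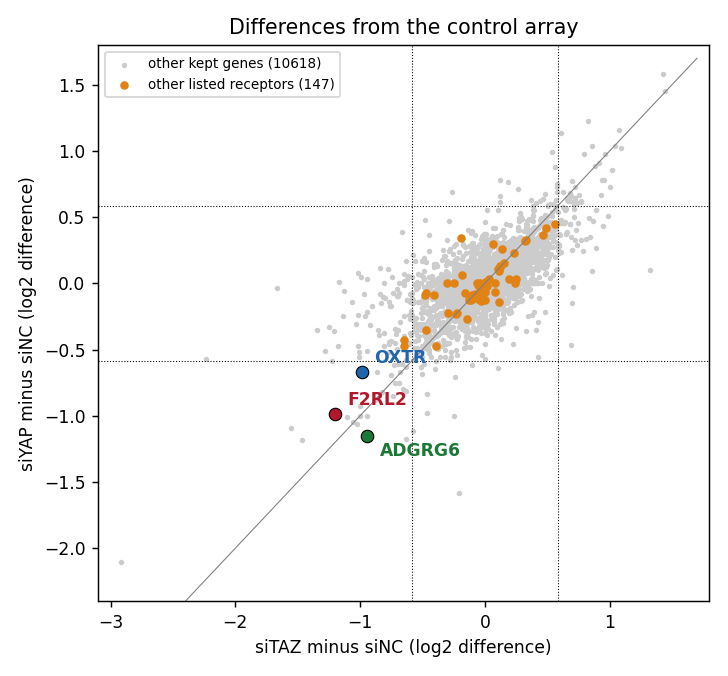
Log2 difference from siNC on the siTAZ array (horizontal axis) and on the siYAP array (vertical axis) for kept genes, with 147 other listed receptors in orange and the 3 genes in colour. Dotted lines mark 1.5-fold and the diagonal marks equal differences; F2RL2 and OXTR lie above the diagonal and ADGRG6 below it. Both axes subtract the same control array, which by itself stretches the cloud along the diagonal.

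No other kept gene of the receptors' own families was at least 1.5-fold lower than control. Few kept genes of any kind were, at 1.02% on the siTAZ array and 0.381% on the siYAP array. Of the 4 protease-activated receptor genes, 3 had a named probe set and all 3 passed the filter. F2R encodes PAR1, the main thrombin receptor of human platelets. It was 6.64, 6.17 and 6.29 on the siNC, siTAZ and siYAP arrays, or -0.47 and -0.35 from control, the same order of arrays as F2RL2 at a smaller size. F2RL3, which encodes PAR4, was close to level at 5.05, 5.02 and 4.92. F2RL1, which encodes PAR2, had no named probe set.

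Around the oxytocin receptor, 6 of 8 listed genes had a named probe set and 4 passed the filter. AVPR2, a vasopressin receptor gene, had the same value of 4.73 on all 3 arrays, as did the hormone gene AVP at 4.48. The vasopressin receptor genes AVPR1A (3.57) and AVPR1B (3.52) lay under the filter and were also identical on the 3 arrays. CD38, an enzyme that supports oxytocin release in the brain, was 6.61, 6.43 and 6.61. Such identical values are common in this table: 41.1% of the kept genes have 1 value on all 3 arrays, so a difference of 0 here does not measure how stable a gene is.

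Among the adhesion receptors, 20 of 32 listed genes had a named probe set and 12 passed the filter. Apart from ADGRG6, none of these 12 reached 1.5-fold in any comparison. In any comparison and direction, at most 1.02% of all kept genes reached it, so a count of 0 is near that share. ADGRG1, the closest in size, lay in the opposite direction at 8.99, 9.45 and 9.35, or 0.47 and 0.36 above control. ADGRG2 was 6.46, 6.44 and 6.38, and 7 of the 12 had 1 value on all 3 arrays (58.3%, all kept genes 41.1%). Of the reported ADGRG6 ligands only PRNP, the prion protein gene, had a named probe set among 10 listed genes. It was 8.19, 8.37 and 8.18, so the siTAZ array was 0.18 above control and the siYAP array 0.01 below. The type IV collagen and laminin genes on that list had no named probe set.

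Over all receptor lists, 150 of 327 genes passed the filter, 147 of them besides the 3. Of these 147, 2 were at least 1.5-fold lower on the siTAZ array (1.36%, near the 1.02% of all kept genes) and 0 on the siYAP array (all kept genes, 0.381%). None was at least 1.5-fold higher in either comparison, against 0.762% and 0.52% of all kept genes. The median difference was 0 in both, as over all kept genes, and 75.5% and 81.0% of the 147 lay within 0.1 of the control, against 71.6% and 76.2% of all kept genes. The pair below the siTAZ threshold were the orphan receptor gene GPR135 (5.76, 5.11 and 5.29) and GPR180 (8.17, 7.53 and 7.74). Both were also below control on the siYAP array, at -0.47 and -0.43. The receptor with the largest difference upward was FZD1, a Wnt receptor, at 0.56 and 0.45 above control. S1PR1, a receptor for sphingosine 1-phosphate, followed at 0.49 and 0.42. Of the 13 listed receptors for lysophosphatidic acid, sphingosine 1-phosphate and endothelin, which include known activators of YAP, 6 passed the filter. On the siTAZ array 3 of these were higher and 3 identical to the control, and on the siYAP array 2 were higher and 4 identical; 0 of 6 lower is near what the 21.7% of all kept genes that were lower in each comparison would give. S1PR2, another receptor for sphingosine 1-phosphate, was 5.21, 5.29 and 5.21. LPAR1, a receptor for lysophosphatidic acid, was 7.76, 7.80 and 7.79.

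**Figure D3:**
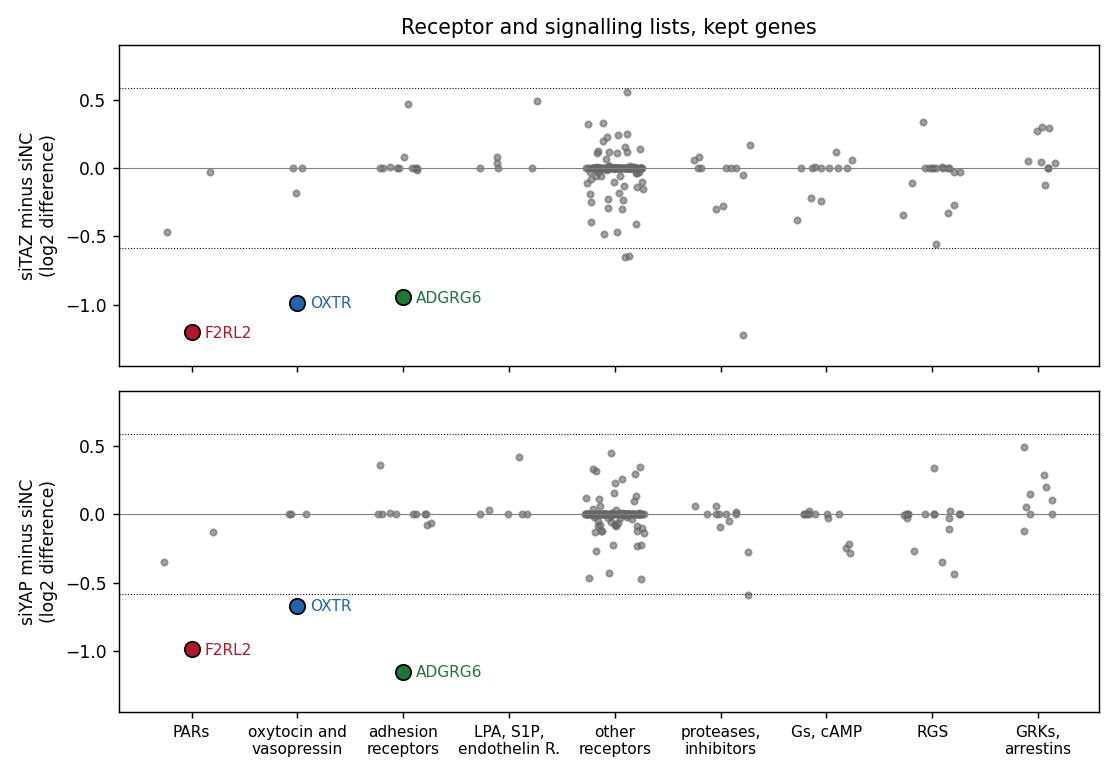
Log2 differences from siNC on the siTAZ array (upper panel) and the siYAP array (lower panel) for kept genes of 9 lists of receptors and signalling genes, 1 grey point per gene with random sideways spread. Dotted lines mark 1.5-fold. F2RL2, OXTR and ADGRG6, in colour, are the lowest points of their lists; the low grey point among proteases and inhibitors is TFPI2 (-1.22 and -0.59).

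Among genes that act before the receptors, 1 stood out in size. Of 28 genes for proteases and inhibitors around thrombin, 12 passed the filter and 1 was at least 1.5-fold lower in both comparisons. That is 8.33% of the 12, against 1.02% (siTAZ) and 0.381% (siYAP) of all kept genes, and rests on 1 gene. This gene was TFPI2, a secreted inhibitor of serine proteases, at 10.84, 9.62 and 10.25. Of the 12, 8 lay within 0.1 of the control on the siTAZ array (66.7%, all kept genes 71.6%) and 10 on the siYAP array (83.3%, all kept genes 76.2%). F7, the coagulation factor VII gene, was 6.85, 6.55 and 6.76. TFPI, the main inhibitor of the tissue factor pathway, was 7.63, 7.35 and 7.35, while F2, which encodes prothrombin, had 1 value (6.11) on all 3 arrays. THBD, the thrombin-binding thrombomodulin, was 6.82, 6.89 and 6.87.

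Inside the cell, coverage of the G proteins by named probe sets was thin. Of 16 alpha subunit genes, GNAS (4.96) and GNA12 (6.15) had named probe sets, each with the same value on the 3 arrays. None of the 17 beta and gamma subunit genes and none of the 13 Gq effector genes had one, so the route by which OXTR signals could not be read. Whether any of the 37519 probe sets without a gene name reports these genes is unknown here. Of the 12 kept Gs and cyclic AMP genes, 0 reached 1.5-fold. On the siTAZ and siYAP arrays 1.02% and 0.381% of all kept genes reached it downward, and 0.762% and 0.52% upward. The adenylyl cyclase genes ADCY4 (4.78, 4.40 and 4.49) and ADCY6 (6.29, 6.05 and 6.05) had the largest differences of that list.

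Genes around the control of receptor signalling were also measured. The 17 kept genes listed as regulators of G protein signalling hold RGS genes and also AXIN1, GPSM and RIC8 genes. In each comparison 7 of these were lower (41.2%), 2 higher and 8 identical, while 21.7% of all kept genes were lower in each. Of the 17, 11 lay within 0.1 of the control on the siTAZ array and 12 on the siYAP array (64.7% and 70.6%, against 71.6% and 76.2% of all kept genes). None of the 17 reached 1.5-fold, which 1.02% and 0.381% of all kept genes reached downward. RGS17 was the lowest of them at 7.15, 6.60 and 6.72, or -0.56 and -0.44. RGS8, near the filter, was 4.39, 4.06 and 4.41. The 9 kept receptor kinase and arrestin family genes had medians of 0.05 and 0.11, and 6 of the 9 were higher in each comparison, against 29.7% and 27.0% of all kept genes. On the siTAZ array 5 of the 9 lay within 0.1 of the control, and on the siYAP array 3 did. TXNIP, an alpha-arrestin, was 4.31, 4.59 and 4.80 on the brighter of its 2 named probe sets, and its siNC level was near the filter. The receptor kinase gene GRK6, at 7.70 on the siNC array, was 0.30 and 0.20 above it on the siTAZ and siYAP arrays.

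The genes next to each receptor on its chromosome were read in the order that RefSeq gives on GRCh38.p14, taking the 3 nearest with a named probe set on each side. This look at the neighbours was added after the receptor values were known. F2RL2 lies within the span of IQGAP2, a scaffold protein gene, and beside F2R. IQGAP2 was 9.26, 8.99 and 9.07 (-0.27 and -0.19), and with F2R it had the same order of arrays as F2RL2, at a smaller size. The next genes outward, SV2C and S100Z, had identical values on the 3 arrays. OXTR overlaps CAV3, the muscle caveolin gene, which was dim at 3.93, 3.90 and 3.90. RAD18, a DNA repair gene on its other side, was 7.68 on all 3 arrays. ADGRG6 overlaps no other gene of the RefSeq table used here, and its nearest neighbour past the filter, HIVEP2, was 6.93, 7.01 and 6.93. Whether signal from the overlapping genes reaches the F2RL2 and OXTR probe sets was not tested, since probe positions were not used here.

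**Figure D4:**
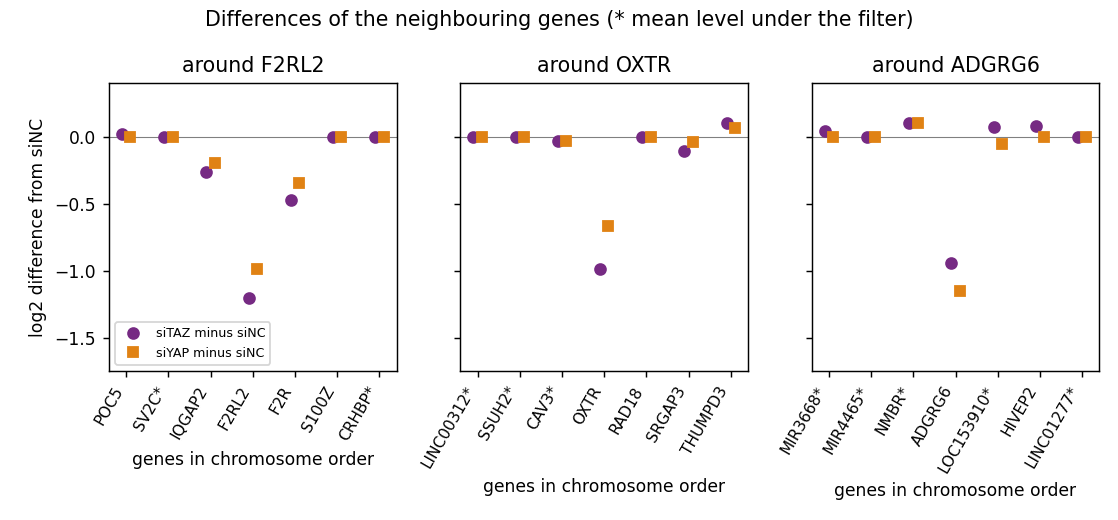
Log2 differences from siNC for F2RL2, OXTR and ADGRG6 and the 3 nearest genes with a named probe set on each side, in chromosome order (circles, siTAZ; squares, siYAP). Spacing is by order, not by distance, and an asterisk marks a gene under the filter. Besides the 3 receptors, IQGAP2 and F2R show the largest differences.

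Across all kept genes, likeness to each receptor was measured as the straight-line distance between pairs of log2 differences from siNC (siTAZ, siYAP). This uses 3 arrays with 1 shared control, and the same differences that chose the 3 receptors. Few kept genes lie in that range: 1.02% were at least 1.5-fold lower on the siTAZ array and 0.381% on the siYAP array. Distances and ranks among the receptors thus follow from how they were chosen and are no evidence of their own. The genes nearest to F2RL2 were IL11 (distance 0.10), PARD6B (0.15), MMD (0.19), MIR4454 (0.20) and FBXW10 (0.21). MIR4454 has 3 named probe sets, of which the brightest was used. IL11, a cytokine gene, was 7.78, 6.67 and 6.78 on the siNC, siTAZ and siYAP arrays. Nearest to ADGRG6 were MMD (0.12), POMK (0.15), PARD6B (0.15), MIR4454 (0.16) and IL11 (0.22). PARD6B, a cell polarity gene, was 8.80, 7.74 and 7.76. Nearest to OXTR were OLFML3 (0.12), the receptor tyrosine kinase gene ROR1 (0.12), FRK (0.15), TMEM170A (0.17) and DOCK5 (0.20). ROR1 was 7.83, 6.97 and 7.16. Between the receptors, F2RL2 and ADGRG6 lay 0.30 apart, F2RL2 and OXTR 0.38, and OXTR and ADGRG6 0.48. ADGRG6 was the 7th nearest gene to F2RL2, and F2RL2 the 8th nearest to ADGRG6.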

How the data were processed

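RNA from A549 cells was measured on 1 array per group (siNC, siTAZ, siYAP), with 500 ng of total RNA labelled per array. The authors made the deposited values, read here as log2 levels, with RMA, per the submitters' processing notes. The log base is not named; the values run from 0.96 to 13.5 with medians of 4.28, 4.26 and 4.27, as RMA writes. RMA version, annotation and build: not given in the sources used here. RMA includes quantile normalization, so a level is relative to the rest of its array. Of 53617 probe sets, the platform table names 16098, each with 1 gene, and all their Entrez identifiers matched RefSeq (GRCh38.p14). They stand for 14884 genes; for the 779 with several, the probe set with the highest mean was used. Genes were kept when this mean reached the median of all probe sets, 4.27.

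Differences are between log2 values of 2 arrays, and thresholds were 2-fold and 1.5-fold (0.58). With 1 array per group there is no p-value, error or test, and the number of arrays limits the precision. The members and the 20 gene lists (531 genes) were chosen with earlier results of these data known; 1 list is not reported here. By rule, the text names the 3 receptors, their families, 6 context genes (CCN2, ANKRD1, AXL, AMOTL2, YAP1, WWTR1), list members at 1.5-fold (otherwise the 2 with the largest differences) and the 5 nearest patterns per receptor. ADGRG1, ADGRG2, AXIN1, DCN, F2, F7, FZD1, KRT8, KRT19, LPAR1, NKX2-1, SFTPB, TFPI, THBD, THY1, the GPSM and RIC8 genes and the chromosome neighbours were named after their values were seen. The counting was tested on simulated data. There were 8 alternatives: no filter, a filter at percentile 75 (5.81), a median shift, subtraction of a loess trend with span 0.4, renewed quantile normalization, averaged probe sets, the probe set highest in siNC, and another reference. Python 3.11.15, pandas 2.3.3 and statsmodels 0.14.6 were used.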

Additional observations from a re-analysis of the deposited data

How the results depend on the processing

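Each member has 1 probe set, so its values do not depend on the choice or averaging of probe sets. Over the 7 alternatives other than the changed reference, no difference of a member moved by more than 0.025 on the log2 scale. Most of them could not move a member: the filters, the probe set settings, and the median shift, as the median difference was 0. Only the loess trend and the renewed quantile normalization could, and RMA had already applied quantile normalization. The smallest siTAZ difference in size was -0.95 (ADGRG6) and the smallest siYAP difference -0.67 (OXTR), both past 1.5-fold, and the differences between siYAP and siTAZ kept their sign.

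With the average of siNC and the remaining knockdown array as the reference, 3 of the 6 differences were under 1.5-fold: ADGRG6 in siTAZ (-0.37), and F2RL2 (-0.39) and OXTR (-0.18) in siYAP. By construction that reference holds a knockdown array in which the gene is also low. The counts of kept genes at least 2-fold lower went from 26 to 13 (siTAZ) and from 13 to 1 (siYAP), and those at least 1.5-fold lower from 110 to 67 and from 41 to 12. The lowest level of any member lay 1.28 above the filter (OXTR, siTAZ array). No alternative replaces a repeated array, and the spread between cultures is unknown for all 3 genes.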
